A study of Homo sapiens with 18 samples.

Results

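The genes that encode receptors for GABA and glutamate were followed in 2 cell lines of Group 3 medulloblastoma, a MYC-driven childhood tumour of the cerebellum, in which short hairpin RNAs had been used to reduce EYA2, a transcriptional coactivator and phosphatase. They were chosen by symbol as the subunit genes of GABA-A, GABA-B, AMPA, kainate, delta and NMDA receptors and the metabotropic glutamate receptors. This gave 47 of the 25369 genes in the table, and 26 of the 47 had enough reads to be tested. Each line had a group transduced with a non-targeting hairpin, called the control here, and groups transduced with hairpins against EYA2, 6 and 8 in D425 and 7 and 8 in D458. Each of the 6 groups had 3 biological replicates, for 18 libraries of polyadenylated RNA. All groups, controls included, carried a zsGreen construct, spent 48 h in puromycin (1 µg/mL), were sorted for the brightest 10% of zsGreen cells and recovered for 24 h. The growth medium contained fetal bovine serum and an L-glutamate supplement in every group. Each line stands for 1 tumour line in culture, and the values are those of sorted bulk cells, in which fewer cells expressing a gene and less RNA per cell cannot be told apart.

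GABA-A receptors are chloride channels, built as a rule from alpha and beta subunits with a gamma, delta, epsilon or theta subunit, while rho subunits form channels known best from the retina. GABA-B receptors are G-protein-coupled pairs of GABBR1 and GABBR2. Glutamate opens the AMPA, kainate and NMDA channels and signals more slowly through the metabotropic receptors. GABRA5, the alpha-5 subunit, is known as a gene that Group 3 tumours express at a high level, and functional NMDA receptors need GRIN1.

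The libraries held 21260369 to 31552051 counts each. EYA2, the target, stood at 15.5 to 43.6 CPM, counts scaled to library size, in the D425 controls and at 9.72 to 15.1 with hairpin 6 and 12 to 17.5 with hairpin 8. In D458 it stood at 67.5 to 73.7 in the controls, 45.1 to 51.9 with hairpin 7 and 18.2 to 23.5 with hairpin 8. The log2 changes of EYA2 were -1.24, -0.98, -0.55 and -1.79 in that order, with adjusted p = 0.00693, 0.017, 0.137 and 5.1e-04 (edgeR quasi-likelihood test). With replicate number as a block, hairpin 7 passed as well (adjusted p = 0.00692). The call with hairpin 8 in D425 was lost without control replicate 1 or hairpin 8 replicate 2 or 3 (adjusted p = 0.0884, 0.0578 and 0.0601). The 7 markers of Group 3 and photoreceptor identity summed to 5403 to 6207 CPM in the D425 controls and, without overlap, to 4493 to 5125 with hairpin 6 and 4258 to 5002 with hairpin 8. In D458 they summed to 6256 to 6763 in the controls, 5543 to 6409 with hairpin 7 and 5221 to 6420 with hairpin 8, against at most 6.09 CPM for 4 endothelial and 3.71 for 5 immune markers in any library. Of the 7, MYC was called lower with both D425 hairpins (log2 -0.43 and -0.55, adjusted p = 0.00733 and 9.4e-04) and CRX higher with both in D458 (1.12 and 1.15, 9.4e-04 and 7.3e-04). The other calls among them went the opposite way in each line, with IMPG2 higher with hairpin 8 in D425 and RCVRN lower with hairpin 7 in D458.

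In the control cells, a few members supplied most receptor transcripts, and the lines differed in which. Levels between genes are compared per exon length, as RPKM, the CPM for each kilobase of exon. Among alpha subunits, GABRA5 led in both lines, at 8.27 ± 0.733 RPKM in D425 and 8.91 ± 1.75 in D458 (mean ± SD, n = 3). GABRA3 followed in D425 at 1.24 ± 0.372 and GABRA2 in D458 at 0.962 ± 0.118. The range of GABRA5 lay above that of both other genes in each line. The level of GABRA5 was not shown to differ between the control groups (log2 0.11, 95% interval -0.31 to 0.52, adjusted p = 0.657).

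The theta subunit set the lines apart. GABRQ, the theta subunit, was the top receptor gene per length in D458, at 16.7 ± 1.28 RPKM against 1.05 ± 0.516 in D425. Its libraries read 112, 98.1 and 99.1 CPM in D458 and 10, 5.48 and 3.87 CPM in D425, a 16-fold difference (SE 0.27 on the log2 scale, adjusted p = 2.8e-09). Of the gamma subunit genes, GABRG1 had 1 count and GABRG3 6 over all 18 libraries. The epsilon subunit gene GABRE was present, at 1.46 ± 0.289 RPKM in D458 and 0.572 ± 0.591 in D425.

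Of the GABA-B pair, GABBR1 was expressed at 8.62 ± 1.27 RPKM in D458 and 4.6 ± 0.764 in D425. Its partner GABBR2 had 69 counts over all 18 libraries, 24 of them in 1 library, hairpin 8 replicate 1 of D425. The rho gene GABRR3 was among the leading members in D425, at 2.2 ± 0.733 RPKM, and close to absent in D458, where 4 counts were found over 3 control libraries. The NMDA gene GRIN2D led the glutamate channels in both lines, with 4.17 ± 0.876 RPKM in D425 and 5.29 ± 0.493 in D458. GRIN1, the obligate NMDA subunit, stood at 1.01 ± 0.457 RPKM in D425 and 0.106 ± 0.0553 in D458. In each line, GRIN1 therefore lay below GRIN2D in all 3 control libraries.

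**Figure D1:**
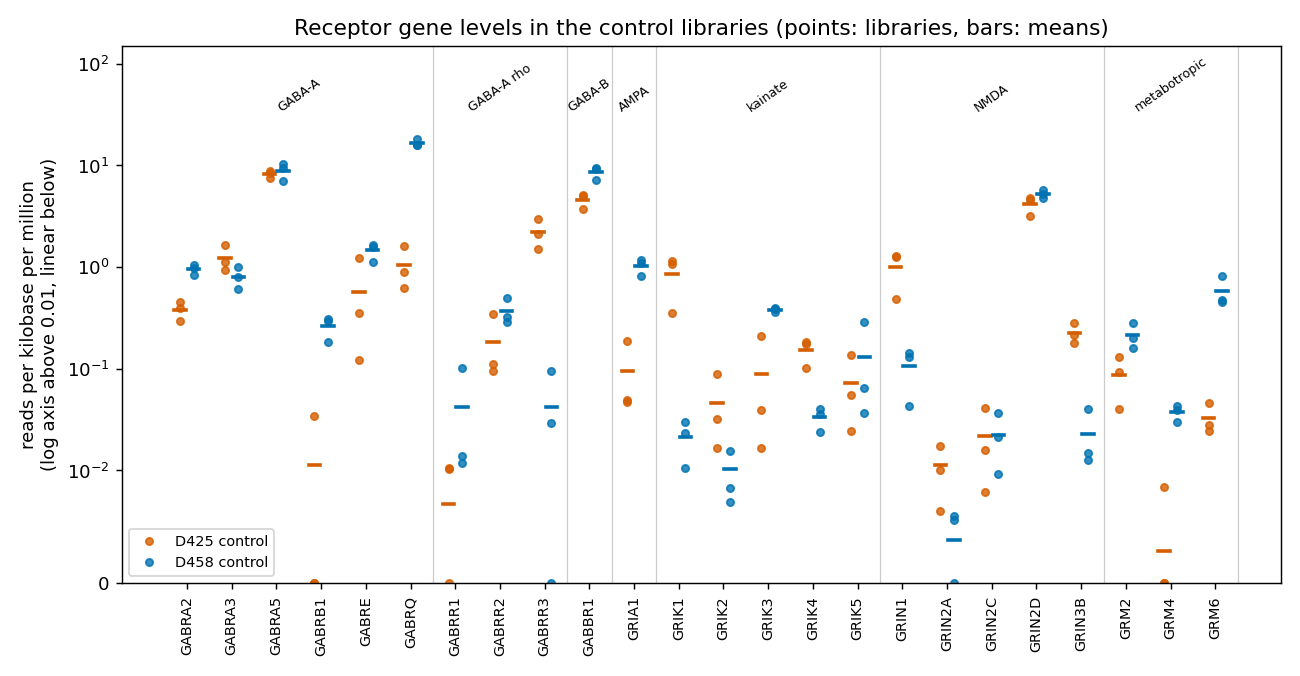
Level of 24 of the 26 tested receptor genes in the control libraries of both lines, in RPKM on an axis that is logarithmic above 0.01; points are libraries and bars are means of 3. GABRA5 and GRIN2D lie at similar levels in both lines, GABRQ lies near 16.7 in D458 and 1.05 in D425, and GRIN1, GRIK1 and GABRR3 lie lower in D458.

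The controls of the lines differed in 15 of the 26 tested members, 10 higher and 5 lower in D458. This is 57.7% of the members, beside 62.8% of all 14850 genes tested (31.4% higher and 31.4% lower), so that the count lay near the background. The median log2 difference was 0.88 over the members and 0.01 over all genes. Besides GABRQ, D458 had more GRM6 (log2 4.13 ± 0.34, adjusted p = 1.8e-08), GRIA1 (3.44 ± 0.49, 1.4e-05), GABRA2 (1.34 ± 0.18, 7.3e-06), GRIK3 (2.13 ± 0.58, 0.00431) and GABBR1 (0.91 ± 0.16, 1.3e-04). GABRB1 and GRM4 had 2 counts each over the D425 controls and 38 and 22 over the D458 controls, ratios of 24.3 (95% interval 6.28 to 208) and 14.1 (3.46 to 123) that cover counting error only. The call of GABRE (1.36 ± 0.49, adjusted p = 0.0222) was lost without D425 control replicate 2 or 3 (0.089 and 0.0577) and without D458 control replicate 2 or 3 (0.0601 and 0.0653). Lower in D458 were GABRR3 (-5.70 ± 0.60, adjusted p = 4.3e-07), GRIK1 (-5.25 ± 0.85, 5.0e-05), GRIN1 (-3.24 ± 0.43, 5.1e-06), GRIN3B (-3.22 ± 0.73, 0.00105) and GRIK4 (-2.15 ± 0.68, 0.0107).

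Promoter sequence is shown for genes on which the comparisons below turn: GRIA1 and GRM6, called higher with every hairpin, GABRQ and GABRB1, which set the lines apart, and GABRR3, a rho gene of D425. Each is the 250 bases before a transcript start in RefSeq (GRCh38.p14), 5′ to 3′ on the gene's strand. The table held windows for 34 of the 47 members, 51 in all. Capitals mark matches, on either strand, to the letters CACGTG (a MYC E-box), TAATCC (an OTX and CRX motif), TCAGGTT (the core of MEF3, which is also the start of the full MEF3 motif TCAGGTTTC) and GGGCGG (a GC box). MEF3 is bound by the homeodomain partners of EYA2, and OTX2 and CRX are factors of Group 3 tumours and photoreceptors.
GRIA1 chr5:153490420-153490669 (+): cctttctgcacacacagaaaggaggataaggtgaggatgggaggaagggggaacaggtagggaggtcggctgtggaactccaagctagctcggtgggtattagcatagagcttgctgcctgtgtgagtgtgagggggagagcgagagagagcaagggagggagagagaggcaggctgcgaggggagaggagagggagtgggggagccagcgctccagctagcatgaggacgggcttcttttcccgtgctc
GRM6 chr5:178995321-178995570 (−): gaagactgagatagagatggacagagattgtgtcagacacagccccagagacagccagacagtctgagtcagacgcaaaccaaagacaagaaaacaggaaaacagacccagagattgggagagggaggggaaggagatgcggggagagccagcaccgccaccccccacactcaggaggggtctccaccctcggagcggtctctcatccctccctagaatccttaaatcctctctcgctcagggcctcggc
GABRQ chrX:152637645-152637894 (+): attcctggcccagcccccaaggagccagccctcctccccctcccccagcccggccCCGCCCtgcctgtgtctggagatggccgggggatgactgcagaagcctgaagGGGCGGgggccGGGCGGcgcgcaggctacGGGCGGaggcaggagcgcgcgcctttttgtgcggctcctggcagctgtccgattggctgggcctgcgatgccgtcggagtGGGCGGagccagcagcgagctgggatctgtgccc
GABRB1 chr4:47031317-47031566 (+): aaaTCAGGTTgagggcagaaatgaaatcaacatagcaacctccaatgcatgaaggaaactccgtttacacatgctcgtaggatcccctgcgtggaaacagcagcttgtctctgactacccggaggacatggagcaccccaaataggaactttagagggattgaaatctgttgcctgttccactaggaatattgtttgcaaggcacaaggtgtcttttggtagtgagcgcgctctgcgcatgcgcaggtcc
GABRR3 chr3:98035316-98035565 (−): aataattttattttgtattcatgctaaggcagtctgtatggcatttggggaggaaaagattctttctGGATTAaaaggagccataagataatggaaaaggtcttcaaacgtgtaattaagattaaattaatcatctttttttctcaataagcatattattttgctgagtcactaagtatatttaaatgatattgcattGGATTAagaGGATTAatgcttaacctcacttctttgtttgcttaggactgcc
The GRIA1 and GRM6 windows held none of these letters, and the GABRQ window held 5 GC boxes at 73.2% G and C. The GABRR3 window, at 30.8% G and C, held 3 TAATCC matches, and the GABRB1 window held 1 MEF3 core. Of 35116 promoters in the table, 5.62% held TAATCC, 2.79% the MEF3 core, 0.288% the full MEF3 motif, 6.34% the E-box and 42.6% the GC box. Among the 51 windows of members, these stood in 1, 1, 0, 1 and 21. A match is a description of letters and does not show that a factor binds there.

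Each hairpin was compared with its control. Reduced EYA2 and other effects of a hairpin cannot be told apart in these comparisons, and hairpin 7 was not called for EYA2 in the main test. In D425, the members that changed were mostly higher, GRIA1 most of all, while GRIN1 fell with both hairpins and GABRA5 fell with hairpin 8. With hairpin 6, 5 members rose and 2 fell, 26.9% of the 26 beside 14.1% of all genes tested (7.31% higher and 6.84% lower). With hairpin 8, 10 rose and 3 fell, 50% of the 26 beside 21.7% of all genes (11.6% higher and 10.1% lower). The median log2 change of the members was 0.71 and 0.82, and that of all genes 0.01 and 0.02. The filter ran once over all 18 libraries, so a member with few control reads could be tested because another group, of either line, had enough reads. GABRB1, for example, had at most 8 counts in a D425 library and up to 128 in D458. Where the reads that passed the filter were those of the hairpin libraries compared, the rise is partly set by the filter. Such members enter these counts and medians. Both comparisons share the 3 D425 controls.

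GRIA1 encodes an AMPA receptor subunit and is the one AMPA gene with enough reads to test. It read 1.13, 0.298 and 0.286 CPM in the D425 controls, 6.61, 4.27 and 4.81 with hairpin 6, and 8.82, 5.45 and 8.88 with hairpin 8. All 6 hairpin libraries lay above all 3 controls, of which replicate 1 was the highest. The change was 9.17-fold with hairpin 6 (log2 3.20 ± 0.49, adjusted p = 7.0e-04) and 13.6-fold with hairpin 8 (3.76 ± 0.49, 1.4e-04), and both calls held without any single library.

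GRIN1 moved the opposite way. It read 2.52, 6.75 and 6.54 CPM in the D425 controls, 1.27, 1.51 and 1.6 with hairpin 6, and 0.898, 1.17 and 1.43 with hairpin 8. Control replicate 1 was the lowest control and still lay above every hairpin library. GRIN1 fell by 1.85 ± 0.38 on the log2 scale with hairpin 6 (adjusted p = 0.00431) and by 2.17 ± 0.39 with hairpin 8 (0.00106), and both calls held without any single library. Its partner GRIN2D read 16.1, 24.3 and 23.2 CPM in the controls, 12.8, 16.3 and 18.4 with hairpin 6, and 10.2, 15.4 and 20.9 with hairpin 8. The GRIN2D groups overlapped and it was not called (log2 -0.42 and -0.46, adjusted p = 0.209 and 0.136), but with replicate number as a block it passed with both (-0.42, adjusted p = 0.00588, and -0.48, 0.00172). The other NMDA genes that were called had few reads. GRIN2A had 14 counts over the D425 controls, 35 with hairpin 6 and 58 with hairpin 8 (log2 1.99 ± 0.58 with hairpin 8, adjusted p = 0.0219), and GRIN3B had 63, 27 and 18 (-1.80 ± 0.59 with hairpin 8, adjusted p = 0.0403 and 0.0582 by DESeq2).

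GABRA5 read 26.2, 29.6 and 31.3 CPM in the D425 controls, 15.2, 23.6 and 19.7 with hairpin 6, and 11.6, 20.7 and 12.7 with hairpin 8. Every hairpin library lay below every control, and replicate 2 was the highest with either hairpin. With hairpin 8, GABRA5 fell by 0.95 ± 0.20 on the log2 scale (adjusted p = 0.00347), in all 3 pairs of the same number and without any single library. With hairpin 6 the log2 change was -0.57 ± 0.20 and missed the threshold (adjusted p = 0.0665), while it passed with replicate number as a block (-0.60, 0.00271) and in DESeq2 (0.0388).

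The theta gene, unlike GABRA5, had higher values with the hairpins in D425. GABRQ read 10, 5.48 and 3.87 CPM in the controls, 13.3, 11.3 and 9.79 with hairpin 6, and 14.5, 10.9 and 11.7 with hairpin 8. It rose by 0.83 ± 0.26 (adjusted p = 0.0427) and 0.95 ± 0.26 (0.0161), with 1 hairpin 6 library inside the control range. The alpha-2 gene GABRA2 read 3.36, 5.11 and 4.45 CPM in the controls, 6.73, 6.33 and 5.61 with hairpin 6, and 8.38, 7.61 and 6.23 with hairpin 8, with no overlap. It rose with hairpin 8 (0.78 ± 0.18, adjusted p = 0.00634), and with hairpin 6 its log2 change was 0.53 (adjusted p = 0.0637, and 0.0371 with replicate number as a block). Where GABRA5 fell, the other alpha gene with a call thus rose. The beta-1 gene GABRB1 had 2 counts over the D425 controls and 16 with hairpin 8, a ratio of 7.9 (95% interval 1.86 to 70.8, counting error only; adjusted p = 0.0289).

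Of the 5 kainate genes tested, GRIK3 rose with both D425 hairpins and GRIK2 with hairpin 8. GRIK3 read 1.97, 0.373 and 0.159 CPM in the D425 controls, 4.47, 2.1 and 4.61 with hairpin 6, and 5.99, 2.71 and 3.64 with hairpin 8. Its log2 change was 2.17 ± 0.57 (adjusted p = 0.0187) and 2.32 ± 0.57 (0.00944). It was higher in every hairpin library than in any control. GRIK2 had 22, 53 and 106 counts and rose with hairpin 8 (2.19 ± 0.66, adjusted p = 0.0259), although hairpin 8 replicate 2 fell inside the control range. GRIK1, GRIK4 and GRIK5 were not called with either hairpin, at log2 changes of -0.44, -0.87 and 0.64 with hairpin 6 and -0.33, 0.20 and 1.06 with hairpin 8.

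GRM6, the metabotropic receptor that retinal ON bipolar cells use, had 18 counts over the D425 controls, 45 with hairpin 6 and 61 with hairpin 8. It read 0.183, 0.298 and 0.159 CPM in the controls, 0.673, 0.505 and 0.501 with hairpin 6, and 0.965, 0.622 and 0.511 with hairpin 8, without overlap. Its log2 change was 1.38 ± 0.38 (adjusted p = 0.0229) and 1.71 ± 0.37 (0.00393). The rho gene GABRR3, also known from the retina, read 2.3, 3.28 and 4.54 CPM in the controls, 1.27, 1.05 and 1.4 with hairpin 6, and 1.7, 1.43 and 3.13 with hairpin 8. It fell by 1.44 ± 0.40 with hairpin 6 (adjusted p = 0.0245) and was not called with hairpin 8, where the groups overlapped (log2 -0.69).

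These D425 counts depended on single libraries. With hairpin 6, the number called was 3 when control replicate 2 was left out, 2 when control replicate 3 was, and 2 and 4 when hairpin 6 replicates 1 and 3 were, and it was 12 with replicate number as a block. Of all genes, these hairpin 6 refits called 8.13%, 6.38%, 8.62%, 8.67% and 27.8% in that order, beside 14.1% in the main fit. With hairpin 8, leaving out control replicates 2 and 3 in turn gave 7 and 6, and leaving out hairpin 8 replicate 1 gave 7. The shares of all genes were then 14%, 10.7% and 13.8%, beside 21.7% in the main fit. In at least 1 such refit the hairpin 6 calls of GABRQ, GABRR3, GRM6 and GRIK3 were lost (highest adjusted p = 0.198, 0.141, 0.121 and 0.0867), and so were the hairpin 8 calls of GABRB1, GRIK2, GRIN3B, GRIN2A and GABRQ (0.129, 0.125, 0.12, 0.109 and 0.0803). Without all libraries of replicate number 2 or 3, 0 and 0 members were called with hairpin 6 (edgeR), beside 108 and 140 of all genes. With hairpin 8 the same fits called 3 and 1 members, beside 877 and 515 of all genes.

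**Figure D2:**
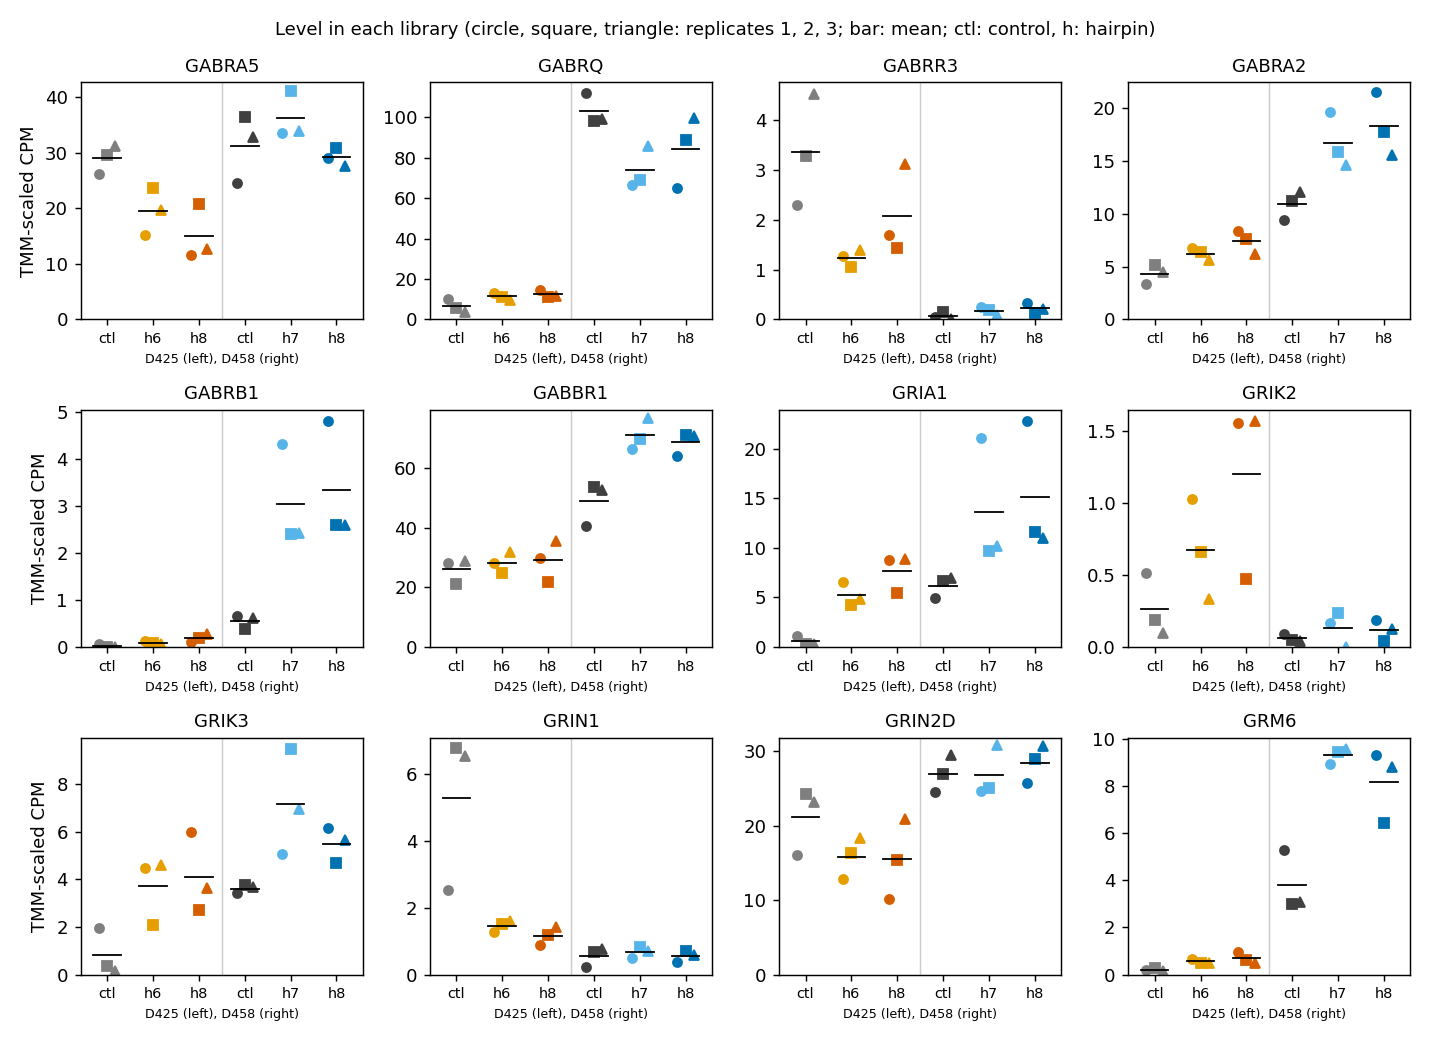
TMM-scaled CPM of 12 receptor genes in each of the 18 libraries; marker shapes are replicate numbers 1 to 3, bars are group means, and each panel has its own linear axis from 0. GABRA5 and GRIN1 read lower with the hairpins than in the controls in D425 and overlap the controls in D458, GRIA1 is higher with the hairpins in both lines, and replicate 1 of the D458 hairpin groups reads highest for GRIA1 and GABRB1.

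In D458 every called member was higher and none was called lower. With hairpin 7, 7 of 26 rose, 26.9% beside 22.6% of all genes tested, and with hairpin 8 also 7, beside 23.2%. Read by direction, 26.9% of the members were called higher beside 11.5% and 12.1% of all genes, and 0 were called lower in edgeR beside 11.1% and 11.1%. At an unadjusted p under 0.05, 10 and 9 members passed in either direction, 38.5% and 34.6% beside 37.6% and 37.1% of all genes. The median log2 change was 1.03 and 0.90 over the members and 0.01 and 0.01 over all genes. As in D425, members that could be tested through their hairpin libraries enter these shares and medians, with a rise partly set by the filter. Both comparisons share the 3 D458 controls.

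GABRB1, the beta-1 gene, rose from a low level in D458. It read 0.666, 0.391 and 0.626 CPM in the controls, 4.32, 2.4 and 2.42 with hairpin 7, and 4.81, 2.61 and 2.59 with hairpin 8. The groups did not overlap, and replicate 1 was the highest with either hairpin. The log2 change was 2.43 ± 0.43 (adjusted p = 0.00152) and 2.56 ± 0.43 (0.00101), and both calls held without any single library. GABRA2, which lies in the same gene cluster, read 9.42, 11.2 and 12 CPM in the controls, 19.6, 15.8 and 14.6 with hairpin 7, and 21.5, 17.7 and 15.5 with hairpin 8. It rose by 0.62 ± 0.17 (adjusted p = 0.0202) and 0.75 ± 0.17 (0.00738), without overlap. With hairpin 7, GABRA3 rose too, from 3.95, 2.39 and 3.09 CPM to 6.74, 5.42 and 5.15 (0.87 ± 0.28, adjusted p = 0.0352), and it read 6.32, 3.09 and 2.89 with hairpin 8.

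Neither GABRA5 nor GABRQ was called with a hairpin in D458. GABRA5 read 24.5, 36.4 and 32.9 CPM in the controls, 33.5, 41.2 and 34 with hairpin 7, and 29, 30.9 and 27.7 with hairpin 8. The groups overlapped, and the log2 changes were 0.21 (95% interval -0.21 to 0.63, adjusted p = 0.455) and -0.10 (-0.52 to 0.32, 0.748). GABRQ read 66.8, 69.2 and 85.7 CPM with hairpin 7, all below the controls, and 64.9, 88.9 and 99.9 with hairpin 8. Its log2 changes of -0.48 and -0.29 were not called (adjusted p = 0.137 and 0.38), but hairpin 7 passed with replicate number as a block (-0.50, 0.026). GABRE read 3.55, 5.03 and 5.21 CPM in the controls, 9.58, 10.1 and 13.3 with hairpin 7, and 8.23, 10.1 and 11 with hairpin 8. Although its groups did not overlap, GABRE missed the threshold (log2 1.25 and 1.09, adjusted p = 0.0577 and 0.0936), and it passed with replicate number as a block (0.0185 and 0.0348).

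GABBR1 read 40.6, 53.5 and 52.5 CPM in the D458 controls, 66.5, 69.7 and 76.7 with hairpin 7, and 64, 71.1 and 70.9 with hairpin 8. It was higher in all 6 hairpin libraries than in any control, by 0.54 ± 0.16 (adjusted p = 0.0246) and 0.49 ± 0.16 (0.0362) on the log2 scale. GABBR2 had 3, 12 and 1 counts over the same groups, so that the pair's second gene stayed near 0. The rho gene GABRR1 had 8, 1 and 1 counts in the controls, 47, 20 and 10 with hairpin 7, and 58, 10 and 12 with hairpin 8 (2.87 ± 0.80, adjusted p = 0.0185, and 2.78 ± 0.80, 0.0208). The adjacent GABRR2 had 108, 18 and 15 counts with hairpin 7 and 118, 10 and 15 with hairpin 8, beside 19, 10 and 13 in the controls, and was not called. Replicate 1 carried most GABRR1 and GABRR2 counts with both hairpins.

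GRIA1 and GRM6 were called in D458 as in D425. GRIA1 read 4.93, 6.65 and 7.01 CPM in the controls, 21.1, 9.68 and 10.2 with hairpin 7, and 22.8, 11.6 and 11 with hairpin 8. All hairpin libraries lay above all controls, with replicate 1 far above the other two. The log2 change was 1.14 ± 0.40 (adjusted p = 0.0479) and 1.29 ± 0.40 (0.0283). Without replicate 1 of the hairpin group the log2 change was 0.70 (adjusted p = 0.278) and 0.88 (0.172). Leaving out any single control also ended both calls (adjusted p = 0.0884 to 0.134 with hairpin 7 and 0.0617 to 0.0934 with hairpin 8). GRM6 read 5.29, 2.98 and 3.09 CPM in the controls, 8.92, 9.44 and 9.58 with hairpin 7, and 9.32, 6.43 and 8.79 with hairpin 8. It rose by 1.30 ± 0.25 (adjusted p = 0.00248) and 1.11 ± 0.25 (0.0059), without overlap, and both calls held without any single library. The kainate gene GRIK4 had 14 counts over the controls, 44 with hairpin 7 and 66 with hairpin 8 (2.06 ± 0.68 with hairpin 8, adjusted p = 0.0388), and with hairpin 7 it passed only with replicate number as a block (1.53, 0.0455). GRIN1, which fell in D425, read 0.222, 0.684 and 0.751 CPM in the D458 controls and 0.376 to 0.815 over the hairpin libraries, and was not called.

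Single libraries moved the D458 counts as well. With hairpin 7, leaving out control replicates 1, 2 and 3 in turn gave 4, 4 and 4 called members, leaving out hairpin 7 replicate 1 gave 3, and replicate number as a block gave 11. Of all genes, these hairpin 7 refits called 15.3%, 14.1%, 12.9%, 8.69% and 40% in that order, beside 22.6% in the main fit. With hairpin 8, control replicates 1 and 3 left out in turn gave 4 and 3, and hairpin 8 replicate 1 left out gave 3. The shares of all genes were then 15.2%, 13.5% and 9.88%, beside 23.2% in the main fit. The calls lost in at least 1 such refit were, with hairpin 7, GRIA1, GABRA3, GABRR1, GABRA2 and GABBR1 (highest adjusted p = 0.278, 0.135, 0.113, 0.112 and 0.0836), and with hairpin 8, GABRR1, GRIK4, GRIA1 and GABBR1 (0.197, 0.182, 0.172 and 0.117). Without all libraries of replicate number 2 or 3, 1 and 1 members were called with hairpin 7, and 1 and 2 with hairpin 8. The same fits called 783 and 654 of all genes with hairpin 7, and 905 and 934 with hairpin 8.

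**Figure D3:**
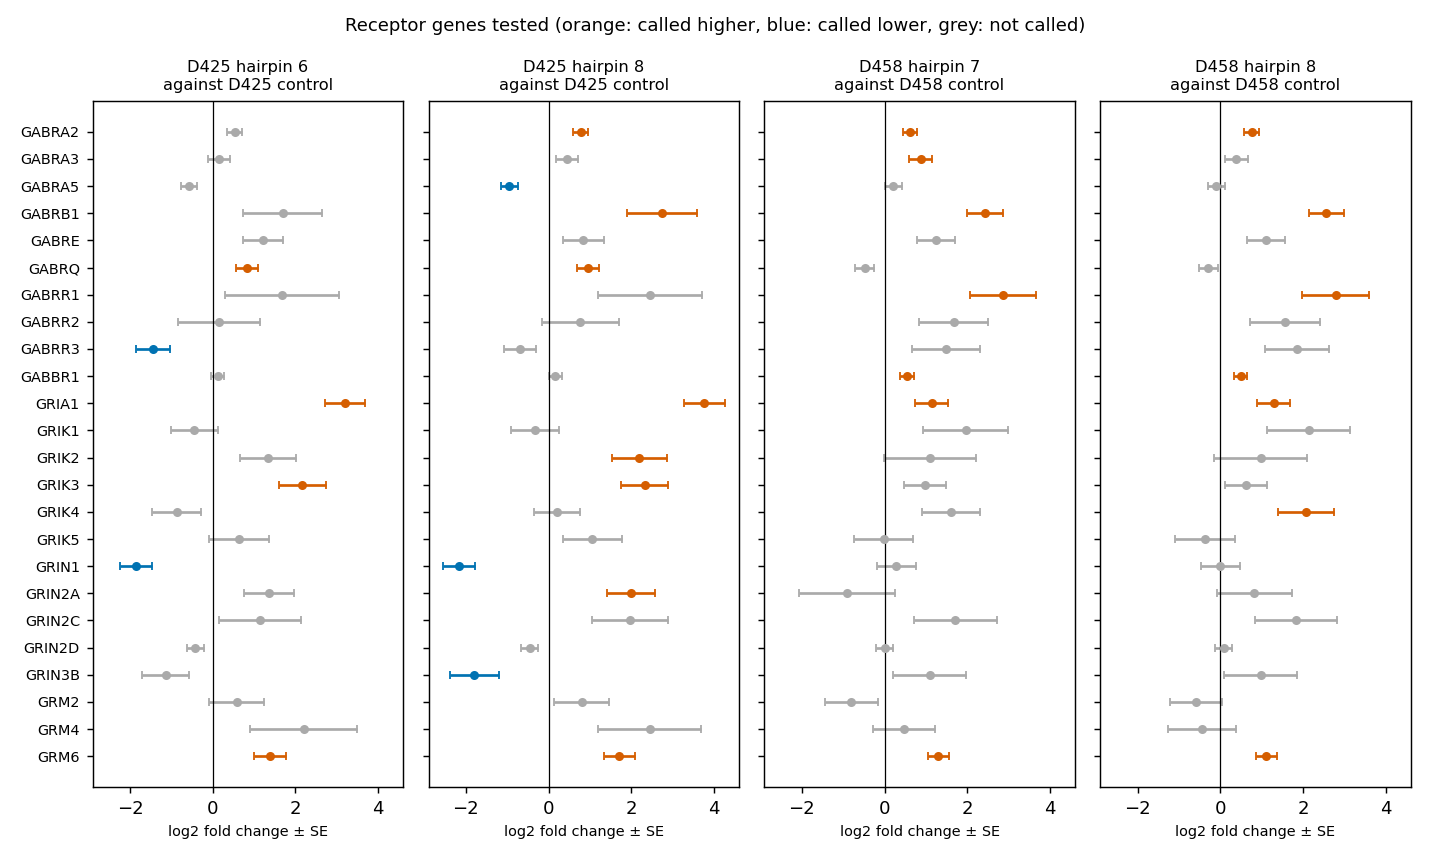
Log2 fold change with its standard error for 24 of the 26 tested receptor genes, 1 panel per hairpin comparison; coloured points passed an adjusted p of 0.05 in edgeR over 14850 genes, and grey points did not. Called genes lie to the right of 0 apart from GABRA5, GABRR3, GRIN1 and GRIN3B in D425, and the panels of a line share their controls.

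Over the 4 hairpin comparisons, 18 of the 26 tested members were called at least once, 69.2% beside 43.9% of all genes tested. GRIA1 and GRM6 were called in all 4, and 2 of 26 is 7.69% beside 2.62% of all genes. The D458 calls of GRIA1 and the hairpin 6 call of GRM6 were lost in refits without 1 library, as given above. The values of GABRA2, GABRB1, GRIA1 and GRM6 passed with hairpin 8 in both lines. GABRE, GABRR2, GRIK1, GRIK5, GRIN2C, GRIN2D, GRM2 and GRM4 were called in none of them. With replicate number as a block, 4 of these 8 had a call. These were GABRE and GRIN2D, described above and for GABRE also with hairpin 6 in D425 (log2 1.40, adjusted p = 0.0295), GABRR2 with hairpin 7 (1.36, 0.0378) and GRIK1 with hairpin 8 in D458 (2.07, 0.029). The block also added GABRR1 with hairpin 8 in D425 (2.45, 0.0324). Called or not, 13 members (50%) had a log2 change above 0 in all 4 comparisons, beside 24.8% of all genes. None of the members (0) had one below 0 in all 4, beside 21.9% of all genes. The filter can have set part of this direction for members with few control reads. Both comparisons of a line share their controls. Between the hairpins of a line, 0 of 26 members were called in D425 and 0 in D458, by edgeR or DESeq2, and 0 members passed an unadjusted p under 0.05. These comparisons called 0% of all genes in edgeR, not even EYA2 in D458, and 6 and 4 genes in DESeq2, while 519 and 274 of all genes passed unadjusted, so that no likeness of the hairpins can be read from them. The log2 difference between hairpins 8 and 6 was -0.38 (95% interval -0.81 to 0.04) for GABRA5 and 0.56 (-0.28 to 1.40) for GRIA1.

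Hairpin 8 was used in both lines, so that the difference of its effect could be tested directly. It was called for 3 of 26 members, 11.5% beside 11.8% of all genes tested (6.19% higher and 5.65% lower in D458). GRIN1 fell in D425 and not in D458, where its log2 change was -0.00 (difference 2.17 ± 0.61, adjusted p = 0.0304). GRIA1 rose less in D458 than in D425 (-2.47 ± 0.63, adjusted p = 0.0191), and GABRQ rose in D425 and did not in D458 (-1.24 ± 0.34, adjusted p = 0.0303). For GABRA5 the difference was 0.86 ± 0.28 (95% interval 0.26 to 1.45) and missed the threshold (adjusted p = 0.058), while it passed with replicate number as a block (0.91, 0.00208) and in DESeq2 (0.0245). The block gave 10 called members, beside 26.5% of all genes. Among the 10 were GABRR3 (2.56, 0.025), GRIK1 (2.42, 0.0296), GRIK3 (-1.83, 0.0338), GRIN2D (0.56, 0.00917) and GABBR1 (0.35, 0.0353). Without D425 control replicate 2 or 3 the count was 0 and 0, without hairpin 8 replicate 1 of D425 it was 1, without D458 control replicate 1 it was 1, and without D425 control replicate 1 it was 7. Of all genes, these refits called 6.9%, 6.5%, 7.14%, 8.89% and 15.8% in that order. The calls of GABRQ, GRIN1 and GRIA1 were lost in 7, 7 and 2 of 12 refits without 1 library (highest adjusted p = 0.081, 0.0772 and 0.0626).

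Of the 47 genes, 21 had too few reads to be tested, 12 of them with at most 5 counts in every library. GRM3 had 0 counts in all 18. The other AMPA genes GRIA2, GRIA3 and GRIA4 had 24, 6 and 21 counts over all libraries, beside 3636 for GRIA1. GRIA2 carries the edited subunit that makes AMPA channels impermeable to calcium. Its group totals ran from 2 to 7 counts. GRIN2B had 4 counts in all. GABRA4, which neighbours GABRB1 in the genome, was found in D458 alone, with 4, 8 and 10 counts in the order control, hairpin 7 and hairpin 8. GABRB2 had 0, 4 and 11 counts and GABRD 0, 8 and 6 in D425, but 8 of the GABRB2 counts with hairpin 8 and all of the GABRD counts came from replicate 1. No fold is given for these genes.

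**Figure D4:**
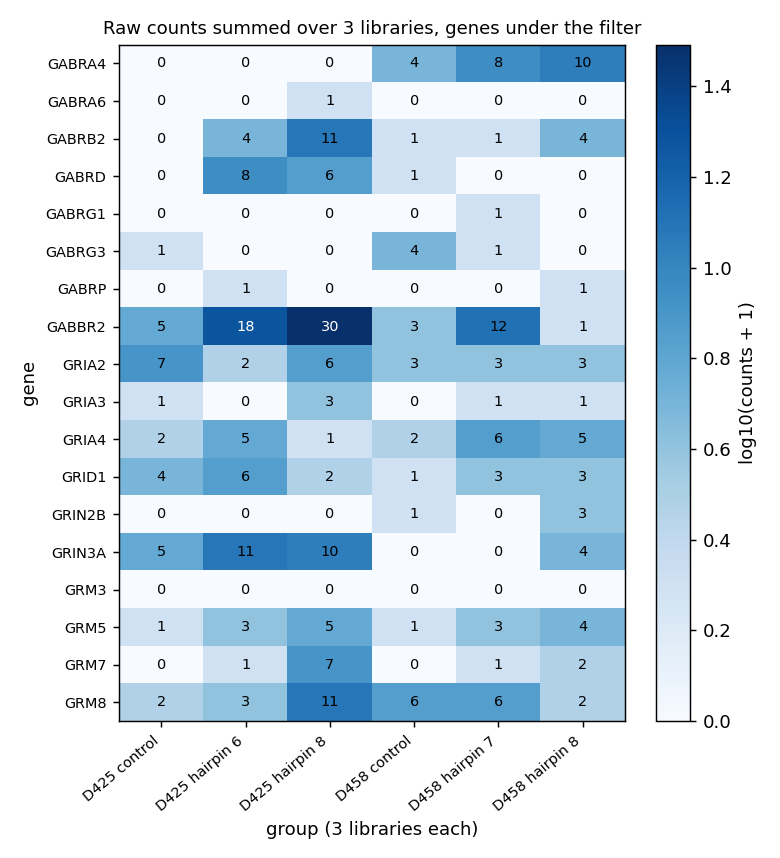
Raw counts summed over the 3 libraries of each group for 18 of the 21 receptor genes with too few reads to test; colour shows log10 of the count plus 1. The highest total is 30, for GABBR2 with hairpin 8 in D425, and GRM3 is at 0 in all groups.

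The genes that make, move and anchor these transmitters and receptors were counted from lists written from general knowledge, and named genes are those with the smallest adjusted p. Beside the counts of every list stand the shares of all genes tested. In the order of the 4 hairpin comparisons, 7.31%, 11.6%, 11.5% and 12.1% of all genes were called higher. Called lower were 6.84%, 10.1%, 11.1% and 11.1%. No list was tested as a set against these shares. Of 9 genes for GABA synthesis, breakdown and transport, 4 could be tested, of which 1, 2, 1 and 1 rose and 1, 1, 1 and 1 fell over the 4 hairpin comparisons. ALDH5A1, which breaks GABA down at its last step, fell with every hairpin (log2 -0.96 ± 0.14, -0.97 ± 0.14, -0.71 ± 0.14 and -0.68 ± 0.14 with D425 hairpins 6 and 8 and D458 hairpins 7 and 8, adjusted p = 5.2e-04, 2.9e-04, 0.00258 and 0.00322). GAD1, which makes GABA from glutamate, rose with both D425 hairpins, from a mean of 1.11 CPM (1.64 ± 0.33, adjusted p = 0.00361, and 1.62 ± 0.33, 0.00265). Its change in D458 was 0.08 and 0.07, and the hairpin 8 effect differed between the lines (-1.56 ± 0.45, adjusted p = 0.0343). The GABA transporter gene SLC6A13 rose with both D458 hairpins (2.99 and 2.99, adjusted p = 0.0141 and 0.0135), though not without hairpin 8 replicate 1 (0.13) or, for hairpin 7, control replicate 2 (0.0513). ABAT, the GABA transaminase, rose with hairpin 8 in D425 (2.98 ± 0.99, adjusted p = 0.0424). The ABAT call was lost without control replicate 2 or 3 (0.116 and 0.159) or hairpin 8 replicate 1 or 3 (0.257 and 0.0577).

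Of 13 genes for GABA receptor anchoring and traffic, 11 were tested, of which 1, 2, 3 and 3 rose over the 4 comparisons and 0 fell. GABARAPL1, a relative of the GABA-A receptor-associated protein that also serves autophagy, rose in all 4 (0.81, 0.79, 0.43 and 0.43, adjusted p = 0.00193, 0.00161, 0.048 and 0.0445). Its D458 calls were lost without replicate 1 of the hairpin group (0.176 and 0.247). They were also lost without control replicate 2 (0.143 and 0.136) or 3 (0.0904 and 0.0858), and the hairpin 7 call without hairpin 7 replicate 2 (0.0563). KCTD8, an auxiliary subunit of GABA-B receptors, rose with both D458 hairpins (0.94 ± 0.15, adjusted p = 7.2e-04, and 0.90 ± 0.15, 8.8e-04), beside the rise of GABBR1 there. Neither chloride transporter gene was called with a hairpin. SLC12A2, which loads cells with chloride, averaged 408 CPM in the D425 controls and 85.9 in those of D458 (log2 -2.25 ± 0.17, adjusted p = 1.0e-08). SLC12A5, which extrudes it in mature neurons, averaged 1.05 and 0.205.

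On the glutamate side, 12 of 15 genes for synthesis, breakdown and transport were tested, of which 2, 3, 1 and 1 rose and 0, 1, 0 and 0 fell. SLC17A7, a vesicular glutamate transporter, rose with hairpin 8 in D425 (0.84 ± 0.18, adjusted p = 0.00368) and with both D458 hairpins (0.64 ± 0.18, 0.0189, and 0.84 ± 0.18, 0.00442). Its hairpin 7 call was lost without D458 control replicate 2 (0.066) or hairpin 7 replicate 1 (0.0946). SLC1A3, which takes up glutamate, fell with hairpin 8 in D425 (-0.99 ± 0.18, adjusted p = 0.00148). Of 14 genes for auxiliary subunits of glutamate receptors, 6 were tested, of which 3, 2, 1 and 0 rose and 0 fell. SYNDIG1, a transmembrane partner of AMPA receptors, rose beside GRIA1 in D425 (3.34 ± 0.77, adjusted p = 0.00868, and 3.53 ± 0.76, 0.00381) from a mean of 0.0246 CPM, at which few reads set the fold. The AMPA auxiliary gene CACNG4 rose there as well (2.80 ± 0.68, adjusted p = 0.0108, and 2.68 ± 0.68, 0.0102), and neither was called in D458. Without D425 control replicate 3, the calls of SYNDIG1 with hairpin 6 and of CACNG4 with both were lost (0.0541, 0.0667 and 0.0589). The CACNG4 call with hairpin 6 was also lost without hairpin 6 replicate 3 (0.081). Of 18 scaffold genes, 16 were tested, of which 2, 3, 4 and 3 rose and 2, 0, 0 and 0 fell. DLG3, a scaffold of NMDA receptors, rose in D425 (1.17 ± 0.20, adjusted p = 0.00138, and 1.25 ± 0.20, 5.7e-04), where GRIN1 fell, and DLGAP4 rose in D458 (0.71 ± 0.14, adjusted p = 0.0024, and 0.72 ± 0.14, 0.00222).

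Markers of several other cell types moved with the hairpins, and not every list is described here. In D425, 6 mature neuron markers summed to 38.5 to 56.1 CPM in the controls, 69.8 to 75.4 with hairpin 6 and 85.8 to 105 with hairpin 8. Of the 5 tested, SYT1 was called higher with both D425 hairpins, SYN1 higher with hairpin 8 and NEFL lower with both. In D458 the 6 were highest in the controls, at 577 to 648, and read 426 to 493 and 464 to 519 with the hairpins, where NEFM was called lower with both and SYT1 higher with hairpin 8. Fibroblast and mesenchymal markers, also 6 genes, summed to 18.5 to 33.1, 42.6 to 85.2 and 50.9 to 95.6 CPM in D425 and to 6.89 to 8.44, 34.3 to 55.6 and 32.2 to 60.9 in D458. Of their 5 tested genes, COL1A1 and LUM were called higher with all 4 hairpin groups, DCN and PDGFRB with both D458 hairpins, and none was called lower; COL3A1 was at 0 in the D458 controls and in no other group. The 7 markers of GABAergic interneurons summed to 15.1 to 19.5, 17.3 to 21.9 and 18.6 to 22.6 CPM in D425 and to 16.7 to 21, 32 to 33.9 and 24.9 to 29.7 in D458. Of the 3 tested, GAD1 was called higher with both D425 hairpins and DLX1 and DLX2 with both D458 hairpins, while PVALB and SST were at 0 in every group and SLC32A1 and GAD2 at 0 in all 3 groups of D458. The 5 astrocyte markers summed to 1.75 to 15.7, 10.8 to 26.1 and 13.1 to 40.8 CPM in D425, controls first. In D458 they summed to 94.3 to 122, 74.7 to 88.7 and 77.9 to 92.9. The 5 markers of SHH medulloblastoma and granule precursors summed to 17.3 to 19.2, 22.8 to 29.9 and 28.5 to 31 CPM in D425. In D458 these summed to 72.6 to 121, 126 to 179 and 116 to 173. KDR, an endothelial marker, was called higher with both D425 hairpins. The part of these cell type markers in the receptor changes was not tested.

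Some members lie next to each other in the genome, and their neighbours were read to describe the regions. Around GABRA5, the 20 nearest tested genes that are no members had median log2 changes of -0.35, -0.17, -0.09 and -0.02 over the 4 hairpin comparisons. Around GRIN1 the medians were -0.43, -0.51, 0.12 and -0.05, lower in D425, where GRIN1 fell. Around GRIA1 they were 0.11, 0.23, -0.01 and 0.15. Around GABRB1 they were 0.23, 0.30, 0.14 and 0.12.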

How the data were processed

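RNA of 18 libraries in 6 groups was sequenced, and the authors deposited whole-number read counts per gene symbol, 1 column per library, with no normalization, per the file headers. Per the labels' protocols, libraries were stranded and poly(A)-enriched. The submitters' processing notes list HTSeq, TopHat2, Bowtie2, Picard, SAMtools, FastQC and bcl2fastq, with the builds GRCh37 and hg19. Tool versions, use of strand in counting and treatment of multiply mapped reads were not given in the sources used here. Thus reads of overlapping antisense genes cannot be told apart. The members, the pathway and marker lists and the rule for naming genes were chosen with earlier results of these data known.

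Software was edgeR 4.0.16 (main test) and DESeq2 1.42.0, run with limma 3.58.1 under R 4.3.3. The edgeR function filterByExpr (minimum count 10) kept 14850 genes and removed 10519. Libraries were scaled by TMM, which gives the CPM shown, with the SD over 3 libraries. RPKM divides CPM by the union of coding transcripts' exons in GENCODE 29. A robust quasi-likelihood fit over the 18 libraries used 1 term for each group and left 12 residual degrees of freedom (biological coefficient of variation 0.153). Calls were made where the p value, adjusted by Benjamini and Hochberg across the 14850 genes, lay under 0.05, and each adjusted p in the text is this one from edgeR unless another tool or a block is named. There were 8 comparisons. The code was tested on simulated data.

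All members entered the counts, and 5 are not reported here by name. The others called in a comparison, and GABRA5, are given per library or, where reads were few, as counts per group, with the rest as ranges, means or counts; from each pathway list, at most 4 called genes with the smallest adjusted p are named. Alternatives were DESeq2, its size factors in edgeR, no filter, the 9 libraries of a line alone, each library left out and a replicate block. Per the labels, libraries of one replicate number shared a run label, and replicate 1 had an earlier date than replicates 2 and 3, so the number marks a batch. The main fit had no term for this number, and only the block took it into account. After removal of group means, libraries of the same number correlated at 0.08 to 0.61 in D425 and 0.13 to 0.70 in D458, and those of different numbers at means of -0.14 and -0.17. Leaving out all libraries of a number was added after the data were seen. Sequences are from RefSeq, and a gene's place is used only to name neighbours, since the builds differ. Intervals of count ratios are exact (Clopper-Pearson, 95%).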

Additional observations from a re-analysis of the deposited data

Results flagged for a closer look

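The effect of hairpin 8 was compared between D458 and D425 by an interaction contrast, and 3 of 26 receptor genes passed at an adjusted p under 0.05 in edgeR, 11.5% beside 11.8% of all genes. The calls of GABRQ, GRIN1 and GRIA1 were lost in 7, 7 and 2 of 12 refits that each left out 1 library. For GRIN1 the log2 difference was 2.17, with a fall in D425 and a log2 change of -0.00 in D458. For GRIA1 it was -2.47, from 3.76 in D425 and 1.29 in D458. For GABRQ it was -1.24, from 0.95 in D425 and -0.29 in D458. The control level of these genes also differed between the lines, with GRIN1 lower in D458 and GRIA1 and GABRQ higher, and the part of the starting level in the differences was not tested.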

How the results depend on the processing

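Each result was recomputed under the alternatives, 1 choice at a time. Fitting the replicate block within each line changed the number of receptor genes called from 7 to 12 with hairpin 6 in D425, from 7 to 11 with hairpin 7 in D458 and from 3 to 10 for the difference of the hairpin 8 effect. The same block raised the number of all genes called from 2101 to 4134, from 3221 to 5521, from 3357 to 5937, from 3442 to 5888 and from 1758 to 3934 for the 4 hairpin comparisons and that difference. It ended no call. DESeq2 called 5 receptor genes for the difference of the hairpin 8 effect, beside 16.2% of all genes. The 9 libraries of D425 alone gave 4 with hairpin 6, beside 12.9% of all genes. With single libraries left out in turn, 2 to 8 receptor genes were called with hairpin 6 and 6 to 15 with hairpin 8 in D425, 3 to 8 with hairpin 7 and 3 to 6 with hairpin 8 in D458, 14 to 16 between the control groups and 0 to 7 for the difference. Of all genes, those refits called 6.38% to 17.6%, 10.7% to 23.1%, 8.69% to 19.5% and 9.88% to 22.3% for the hairpins in that order. They called 57.5% to 60.1% between the control groups and 6.5% to 15.8% for the difference. Without all libraries of replicate number 1, 2 or 3 the counts were 9, 0 and 0, then 15, 3 and 1 in D425. They were 6, 1 and 1, then 6, 1 and 2 in D458, and 6, 0 and 0 for the difference. The shares of all genes were 23.1%, 0.727% and 0.943%, then 27.9%, 5.91% and 3.47% in D425. In D458 they were 18.7%, 5.27% and 4.4%, then 15.1%, 6.09% and 6.29%. For the difference they were 14.9%, 0.411% and 0.694%. Such fits have fewer samples.

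For single genes, 145 of 588 refits of a called result without 1 library lost the call. The one change of sign was GABRA5 with hairpin 8 in D458, not called, which ranged from -0.24 to 0.05 (the latter without D458 control replicate 2, adjusted p = 0.898), and the cause was not tested. Without the low-count filter, 9 of 95 gene calls were lost, among them GABRQ (adjusted p = 0.0806) with hairpin 6, GRIN3B (0.0641) with hairpin 8 in D425, and GRIA1 (0.0793) with hairpin 7 in D458. The 9 libraries of a line alone could not be fitted to comparisons between lines. The 21 genes under the filter had at most 24 counts in a library and were left out of the main test. Whether they differed between groups was not tested there.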
